A study of Mus musculus with 8 samples.

Results

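The solute carrier (Slc) genes were followed across normal blood-forming progenitors and leukaemia-initiating cells of mice. Members were all genes whose single annotated symbol starts with Slc, a family number and the letter a, each represented by its brightest probe set, judged by the mean of all 8 arrays. They were 246 of the 12393 genes measured, in 49 families. Carriers that belong to these families under other names, and the Slco genes, fell outside this choice. The symbols Slc4a1ap, Slc9a3r1 and Slc9a3r2 met it although they name partner proteins rather than carriers.

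Solute carriers are membrane proteins that move small molecules and ions down or against a gradient without splitting ATP themselves. They bring in amino acids, sugars, vitamins and metals, send lactate out of cells, and pass metabolites across the membranes of mitochondria and lysosomes. In blood-forming tissue they are known best for the uptake of iron and glycine during haem synthesis and for the supply of amino acids to dividing progenitors.

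Gene expression was measured on Affymetrix 3′ arrays in 3 groups of C57/BL6 mouse cells, and the labels give an age of 12 weeks for every sample. The normal cells were bone marrow LSK cells, the fraction without lineage markers that carries Sca1 and Kit (3 arrays, titled WT HSC). Leukaemia-initiating cells (LICs) carried the same markers plus GFP and were sorted 14 days after bone marrow transplantation in a retroviral model of chronic myeloid leukaemia (CML), as wild type (WT, 3 arrays) or Ezh2 knockout cells (Ezh2 KO, 2 arrays). Every sample went through the sorter more than once, and repeats are labelled as biological. The driver and timing of the Ezh2 deletion, the pooling of animals, their sex and the retroviral construct are not stated in the sources used here. Both LIC groups share transplantation, retroviral infection and leukaemia, so these cannot be told apart in a comparison with LSK cells. No scan date is given, so batch and group cannot be told apart either. Because RNA of whole sorted populations was measured, fewer cells of a type and less RNA per cell cannot be told apart.

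Values are log2 intensities, and array medians lay between 6.42 and 6.57. The highest mean of 27 bacterial control probe sets that no RNA was added for, 4.01, serves as the floor below which a level has no meaning. Ezh2, the histone methyltransferase removed in the knockout, was at 10.77, 10.95 and 11.07 on the LSK arrays, at 11.33, 11.44 and 11.26 on the WT LIC arrays and at 8.94 and 9.55 on the Ezh2 KO arrays. Whether its probe set lies in the deleted stretch is not stated in the sources used here. Kit, which the sort selected for, was at 10.90 to 11.05 on LSK arrays, at 9.69 to 9.81 on WT LIC arrays and at 9.99 and 10.35 on Ezh2 KO arrays, lower in both LIC groups than in LSK cells (limma adjusted p = 0.00886 and 0.0455). WT LIC replicate 3 stood apart: among the 113 brighter members it lay below both other WT LIC arrays by more than 1 in 12 and above both in 5, against 0 and 3 for replicate 1 and 1 and 1 for replicate 2. The summed intensity of 6 measured erythroid markers was 5422, 3345 and 144 for WT LIC replicates 1, 2 and 3, against 571 to 865 on LSK arrays and 593 and 372 on the Ezh2 KO arrays. The Y-linked gene Eif2s3y was at 1.29 to 1.63 on LSK arrays and at 9.21 to 9.80 on LIC arrays. Xist, which silences the second X chromosome of females, was at 12.45 to 12.69 on LSK arrays, at 10.68, 11.06 and 4.35 for WT LIC replicates 1, 2 and 3 and at 10.69 and 11.18 on those of Ezh2 KO LICs. Sex-linked transcripts thus separate LSK from LIC arrays. In every comparison with LSK cells, sex cannot be told apart from leukaemia and the treatments that LICs share. B-lineage markers (7 measured) summed to 7044 and 4190 on the Ezh2 KO arrays, against 437 to 883 on WT LIC and 854 to 1239 on LSK arrays. The sums of antibody-secreting cell markers (5 measured) were 3420 to 4816 on LSK arrays and 1216 to 1868 on LIC arrays. Other lists also separated LSK from LIC arrays. The sums of markers of LSK identity (6 measured) were 10141 to 10753 on LSK and 4589 to 7370 on LIC arrays, those of monocytes and macrophages (7 measured) 4897 to 5753 and 1299 to 2971, and those of megakaryocytes (6 measured) 1231 to 1979 and 330.3 to 602. T and NK cell markers (4 measured) summed to 1883 to 3187 on LSK and 3284 to 4497 on LIC arrays. Nearly all of this sum was Nkg7, which did not pass in limma in either LIC group (adjusted p = 0.0945 and 0.323). The group means of Cd3e, Cd3g and Cd8a were 2.61 to 4.05, near or under the floor. Neutrophil markers (8 measured) overlapped, with 13088 to 14194 and 9214 to 18000. The part of these cell types in the differences from LSK cells given here was not tested.

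Of the 246 members, 113 had a mean above 6 in at least 1 group (45.9%, against 61.2% of all genes), and the other 133 were counted apart as dim. In all 3 groups 94 were above 6, and 90 members lay at or under the floor in every group. The limit of 6 fell between Slc13a2 at 6.01, Slc22a21 at 6.11 and Slc39a3 at 6.12 on the inside and Slc5a6 at 5.97, Slc25a47 at 5.92 and Slc66a1 at 5.89 on the outside. Mitochondrial carriers (25 of 33 above 6) and carriers of zinc, iron and other metals (19 of 26) were mostly among the brighter members. Carriers of organic ions, drugs, peptides and vesicle cargo (7 of 34), of sugars (5 of 22) and of bicarbonate and sulfate (2 of 15) were mostly dim. Among the 44 amino acid carriers 18 were above 6. Slc16a3, Slc25a30 and Slc25a33 were above 6 in both LIC groups and not in LSK cells. Slc22a23, Slc29a2, Slc38a5, Slc40a1 and Slc41a3 were above 6 in WT LICs alone, as group means that WT LIC replicate 3 takes part in. Between arrays of a group, the median SD of the brighter members was 0.291 in LSK cells, 0.298 in WT LICs and 0.186 over the 2 Ezh2 KO arrays.

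The first comparison asked which carriers differ between WT LICs and normal LSK cells. The carriers with higher levels in WT LICs were those of small neutral amino acids (Slc1a4), of large neutral amino acids (Slc7a5), of cationic amino acids (Slc7a3) and of lactate (Slc16a3, Slc16a1). Slc16a6, of the same family as the lactate carriers, was also higher. The carriers with lower levels were Slc16a11, Slc7a4, Slc29a3 and Slc39a11. These 10 of 246 members (4.07%) passed a Benjamini-Hochberg adjusted p of 0.05 in a limma fit over all genes, 6 higher and 4 lower, against 3.42% of all genes (1.27% higher, 2.15% lower). At an unadjusted p under 0.05 the counts were 44 members (17.9%) against 20.6% of all genes. The arrays of the groups did not overlap in 52 members (21.1%), against 26.7% of all genes. The members' median log2 difference was 0.09 and that of all genes 0.02. Over all members the share called is thus near that of all genes. Among the brighter members 8 of 113 passed (7.08%), against 5% of all genes above 6. This difference was not tested.

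**Figure D1:**
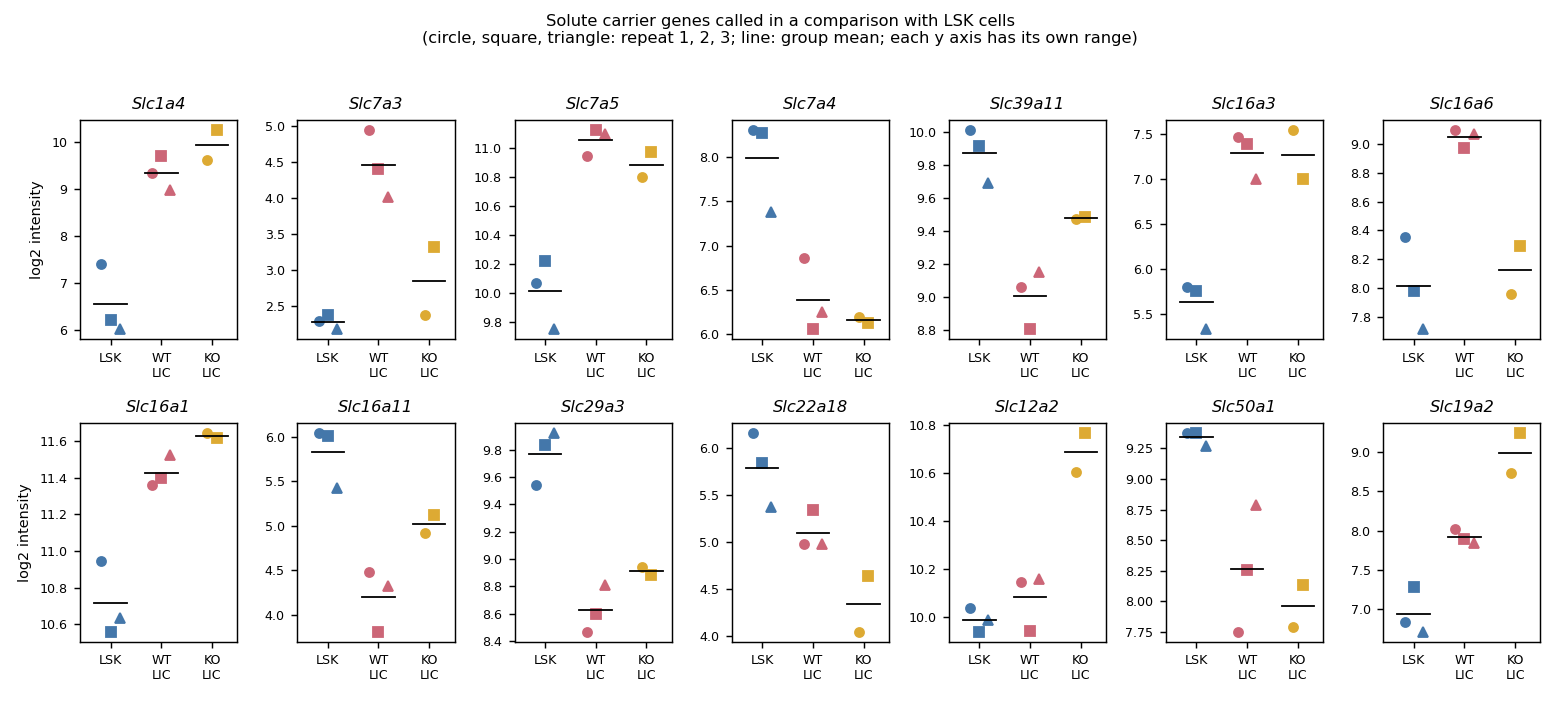
The 14 solute carrier genes with an adjusted p under 0.05 in either comparison with LSK cells, each panel with its own vertical axis in log2 intensity and the 3 groups side by side. Circles, squares and triangles are repeats 1, 2 and 3 and lines are group means; Slc1a4, Slc16a3 and Slc7a5 lie higher on every LIC array of both genotypes than on any LSK array.

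Of the 44 amino acid carriers, 3 rose in WT LICs, 1 fell and 40 did not pass. The share called was 9.09%, against 3.42% of all genes, a difference that was not tested. Slc1a4, an exchanger of alanine, serine and cysteine on chromosome 11, was at 7.41, 6.20 and 6.01 on the LSK arrays, at 9.35, 9.72 and 8.97 on the WT LIC arrays and at 9.62 and 10.26 on the Ezh2 KO arrays. All 5 LIC arrays lay above all 3 LSK arrays. The difference between WT LICs and LSK cells was 2.81 on the log2 scale (SE 0.40, 6.99-fold, limma adjusted p = 0.0151). Its other probe sets, which were dimmer, differed by 0.96 and 0.12, so the size of the difference depends on the probe set. The call was lost without LSK replicate 2 (adjusted p = 0.0536), WT LIC replicate 1 (0.0566) or WT LIC replicate 2 (0.0547).

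Slc7a5 forms the large neutral amino acid carrier LAT1 with the heavy chain Slc3a2, and brings in leucine and its kin. Its values were 10.07, 10.22 and 9.75 on LSK, 10.94, 11.12 and 11.10 on WT LIC, and 10.80 and 10.97 on Ezh2 KO arrays. No LIC array reached down to the LSK range. The difference between WT LICs and LSK cells was 1.04 (SE 0.16, 2.06-fold, limma adjusted p = 0.0208), and the adjusted p was 0.0585 and 0.0524 with LSK replicate 1 or 3 left out and 0.0559 and 0.0774 with WT LIC replicate 1 or 2 left out. The partner Slc3a2 was at 9.73, 9.97 and 9.76 on LSK arrays and at 10.45, 10.19 and 10.34 on WT LIC arrays, which do not overlap. Its difference of 0.51 (SE 0.14) did not pass in limma (adjusted p = 0.0952), and in Ezh2 KO LICs its values were 10.003 and 9.93. Slc7a6, a related light chain of the same heterodimer family, was higher by 0.50 without passing (adjusted p = 0.149), and its other probe set differed by -0.22.

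Slc7a3, a carrier of arginine and other cationic amino acids on the X chromosome, was dim throughout. Its LSK values of 2.30, 2.38 and 2.19 lay under the floor, and its WT LIC values were 4.94, 4.40 and 4.01. Against the floor the level in WT LICs was at least 1.36-fold higher. The limma adjusted p of 0.0142 tests the log2 values as measured, those under the floor included, and not this fold. It became 0.0519 when LSK replicate 3 was left out. In Ezh2 KO LICs its values were 2.38 and 3.32, again under the floor. The Y-linked and Xist values given above differ between the same groups, and their part in this result was not tested. Of the 9 X-linked members, 1 was called (11.1%, against 3.42% of all genes), and their median difference was 0.30, against 0.02 for all genes. The share over all X-linked genes was not counted.

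Slc7a4 is related to the cationic amino acid carriers, but its cargo is not settled. It stood at 8.30, 8.26 and 7.38 on LSK arrays, at 6.86, 6.06 and 6.25 on WT LIC arrays and at 6.20 and 6.13 on Ezh2 KO arrays. Every LIC array was lower than every LSK array. It fell by 1.59 in WT LICs (SE 0.30, 3.01-fold, limma adjusted p = 0.0375), and its other probe sets were lower by -0.87 and -1.30. The call held in 1 of 8 fits that left out an array, with adjusted p-values between 0.0268 and 0.114.

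Some carriers of the Slc16 family, Slc16a1 and Slc16a3 among them, pass lactate, pyruvate and ketone bodies together with protons. Of the 7 family members measured, 4 were called in WT LICs (57.1%, against 3.42% of all genes), with 3 higher and 1 lower. The family was singled out after its values were seen. Slc16a3 (MCT4), which mainly exports lactate from glycolytic cells, was at 5.79, 5.75 and 5.33 on LSK arrays, at 7.47, 7.39 and 6.997 on WT LIC arrays and at 7.54 and 6.99 on Ezh2 KO arrays. The LIC arrays of both genotypes lay above the LSK arrays with a gap of over 1. It rose by 1.66 in WT LICs (SE 0.22, 3.16-fold, limma adjusted p = 0.0124), and the call was kept under all 17 alternatives tried, with adjusted p-values from 0.00534 to 0.0493. Slc16a1 (MCT1), which carries lactate in both directions, stood at 10.95, 10.56 and 10.64 on LSK arrays, at 11.36, 11.40 and 11.52 on WT LIC arrays and at 11.64 and 11.62 on Ezh2 KO arrays. The groups did not overlap, but the difference of 0.71 (SE 0.15, 1.64-fold) passed only just in limma (adjusted p = 0.0485). Whichever of the 8 arrays was left out, the adjusted p lay between 0.0538 and 0.133. Bsg, the chaperone that brings both carriers to the cell surface, was at 10.20 to 10.33 on LSK arrays and at 10.35 to 10.65 on WT LIC arrays, a difference of 0.24 that did not pass (limma adjusted p = 0.401).

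Slc16a6 (MCT7), known as a ketone body carrier in zebrafish liver, also passed. It stood at 8.35, 7.98 and 7.72 on LSK arrays, at 9.09, 8.97 and 9.07 on WT LIC arrays and at 7.96 and 8.29 on Ezh2 KO arrays. The WT LIC arrays were above all others, and the Ezh2 KO arrays lay inside the LSK range. Between WT LICs and LSK cells it rose by 1.03 (SE 0.19, 2.04-fold, limma adjusted p = 0.0353), and in 7 of the 8 fits that left out an array the adjusted p was between 0.051 and 0.11. Slc16a11, a dim monocarboxylate carrier, was at 6.04, 6.01 and 5.42 on LSK arrays, at 4.48, 3.81 and 4.33 on WT LIC arrays and at 4.92 and 5.12 on Ezh2 KO arrays. It fell by 1.62 in WT LICs (SE 0.24, 3.07-fold, limma adjusted p = 0.0186), a call lost without LSK replicate 1 or 2 (adjusted p = 0.0595 and 0.0607).

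Promoter sequences are shown for the 2 lactate carriers and for Slc1a4 and Slc19a2, the vitamin carrier described further on, because these 4 were higher in LICs of at least 1 genotype. The windows are those of RefSeq on assembly GRCm38.p6, from 250 bases before to 50 bases after the gene's start, written 5′ to 3′ on the gene's strand. They lie at chr3:104638414-104638713 (Slc16a1, plus strand), chr11:120948817-120949116 (Slc16a3, plus), chr11:20332664-20332963 (Slc1a4, minus) and chr1:164248796-164249095 (Slc19a2, plus).
Slc16a1: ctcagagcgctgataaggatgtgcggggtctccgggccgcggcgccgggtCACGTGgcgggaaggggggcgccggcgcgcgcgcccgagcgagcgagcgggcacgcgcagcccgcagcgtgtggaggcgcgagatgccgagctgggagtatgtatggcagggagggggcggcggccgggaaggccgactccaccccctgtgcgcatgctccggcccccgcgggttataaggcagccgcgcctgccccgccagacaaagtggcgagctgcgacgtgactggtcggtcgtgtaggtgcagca
Slc16a3: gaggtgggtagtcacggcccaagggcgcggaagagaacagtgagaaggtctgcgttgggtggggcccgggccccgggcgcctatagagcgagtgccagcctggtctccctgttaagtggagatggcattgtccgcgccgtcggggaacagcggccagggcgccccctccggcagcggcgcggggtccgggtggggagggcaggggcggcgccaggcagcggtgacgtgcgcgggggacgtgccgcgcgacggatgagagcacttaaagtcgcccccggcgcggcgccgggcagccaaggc
Slc1a4: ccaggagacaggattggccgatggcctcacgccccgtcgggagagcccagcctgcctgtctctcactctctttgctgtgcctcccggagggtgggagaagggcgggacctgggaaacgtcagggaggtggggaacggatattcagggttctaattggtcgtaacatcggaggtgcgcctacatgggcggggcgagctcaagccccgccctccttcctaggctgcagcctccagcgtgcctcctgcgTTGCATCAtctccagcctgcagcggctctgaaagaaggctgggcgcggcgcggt
Slc19a2: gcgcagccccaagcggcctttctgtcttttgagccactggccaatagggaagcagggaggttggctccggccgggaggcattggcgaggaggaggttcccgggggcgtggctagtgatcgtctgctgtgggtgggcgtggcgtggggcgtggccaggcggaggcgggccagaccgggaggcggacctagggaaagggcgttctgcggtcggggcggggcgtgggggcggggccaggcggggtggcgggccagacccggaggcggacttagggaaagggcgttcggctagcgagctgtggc
Capitals mark 2 motifs searched on both strands, the E-box CACGTG, which MYC and related factors can bind, and TGATGNAA, the core of amino acid response elements bound by ATF4. In the Slc16a1 window the first motif begins 200 bases before the start. In the Slc1a4 window the second, on the opposite strand, runs across the start, with 4 of its bases before it and 4 after. The Slc16a3 and Slc19a2 windows hold neither. Among genes with lower levels in LICs, a Slc39a11 window holds CACGTG, beginning 34 bases after the start, and the Slc50a1 window holds TGATGNAA, beginning 189 bases before it. Each motif was thus in 2 of the 9 called members that have a window, with higher and lower genes among them. Counted by gene, CACGTG was in 8.1% of 27025 genes with a window and in 15.2% of 191 members, and TGATGNAA was in 4.5% and 3.7%. Counted by window, CACGTG was in 7.15% of all 32851 windows and in 12.2% of 255 windows of these members, and TGATGNAA was in 3.97% and 3.14%. A match describes the letters of the window only.

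Of the other groups, 2 held a called gene in WT LICs. Slc29a3, which lets nucleosides out of lysosomes, was at 9.54, 9.84 and 9.92 on LSK arrays, at 8.47, 8.60 and 8.81 on WT LIC arrays and at 8.94 and 8.88 on Ezh2 KO arrays. No LIC array reached the LSK range, and the gene fell by 1.14 in WT LICs (SE 0.16, 2.20-fold, limma adjusted p = 0.0142). Its other probe set was lower by -0.98. Without WT LIC replicate 1 or 2 the adjusted p was 0.0517 and 0.0563. Slc39a11, a zinc carrier of the ZIP family, was at 10.01, 9.91 and 9.69 on LSK arrays, at 9.06, 8.81 and 9.15 on WT LIC arrays and at 9.47 and 9.49 on Ezh2 KO arrays. It fell by 0.86 in WT LICs (SE 0.15, 1.82-fold, limma adjusted p = 0.0306), with the Ezh2 KO arrays between the other groups. That call held in 1 of 8 fits that left out an array, with adjusted p-values from 0.0307 to 0.0983.

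**Figure D2:**
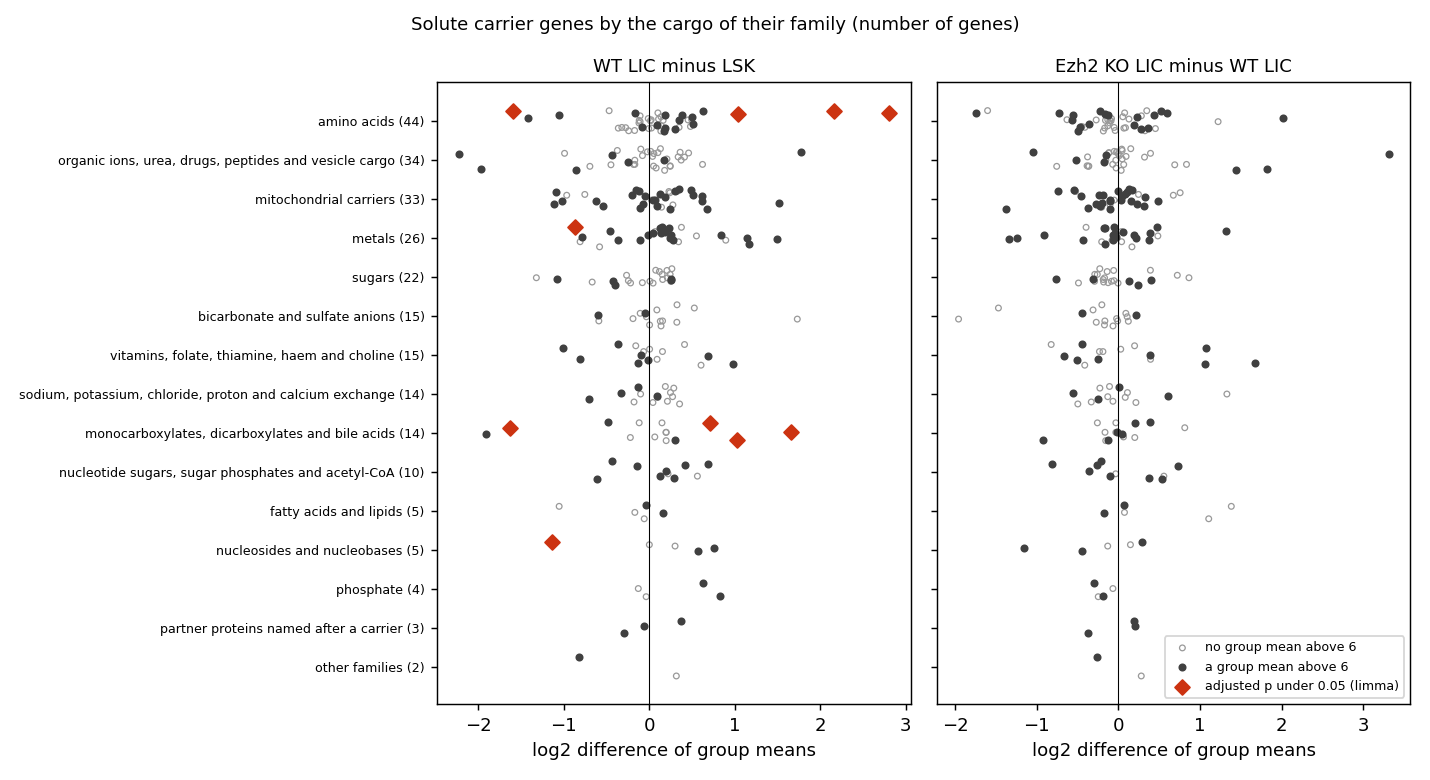
Log2 difference of group means for each of the 246 genes by cargo group, for WT LICs minus LSK cells (left) and Ezh2 KO minus WT LICs (right). Each point is a gene, filled where a group mean exceeds 6 and a red diamond where the limma adjusted p is under 0.05; there are 10 diamonds on the left and 0 on the right.

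Among mitochondrial carriers, which exchange metabolites and nucleotides across the inner membrane, 0 of 33 passed in WT LICs. The unadjusted p in limma was under 0.05 in 9 (3 higher, 6 lower), which is 27.3%, against 20.6% of all genes. The lowest p-values belonged to Slc25a45, with a difference of -1.02 (limma adjusted p = 0.0553), and Slc25a23, an ATP-magnesium and phosphate carrier, with -1.11 (adjusted p = 0.0678). Slc25a33, which brings pyrimidine nucleotides into mitochondria, was at 6.04, 5.15 and 5.81 on LSK arrays, at 7.50, 7.65 and 6.39 on WT LIC arrays and at 7.42 and 6.56 on Ezh2 KO arrays. All LIC arrays lay above the LSK arrays, and the LIC genotypes overlapped. For WT LICs against LSK cells the adjusted p was 0.0938 with all arrays and 0.0309 without WT LIC replicate 3. Slc25a5, the adenine nucleotide exchanger, was at 12.59 to 12.71 on LSK arrays and 12.78 to 13.13 on WT LIC arrays (difference 0.30, adjusted p = 0.275). Slc25a37, the mitochondrial iron importer of erythroid cells, was at 8.98 ± 0.0301 (SD, n = 3) on LSK arrays and at 8.35 ± 0.389 (SD, n = 3) on WT LIC arrays (difference -0.62, adjusted p = 0.185).

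Sugar carriers gave no call in WT LICs. Slc2a1 (GLUT1), the main glucose importer of many dividing cells, was at 10.25, 10.25 and 10.28 on LSK arrays, at 10.20, 10.64 and 10.73 on WT LIC arrays and at 10.80 and 11.04 on Ezh2 KO arrays. WT LICs overlapped LSK cells (difference 0.26, SE 0.17, limma adjusted p = 0.449), and the Ezh2 KO arrays were above both other groups without passing against LSK cells (0.66, SE 0.19, adjusted p = 0.117). Its 3 probe sets differed by 0.26 to 0.51 in the first comparison and by 0.66 to 0.98 in the second. Slc2a3 (GLUT3), the high-affinity glucose carrier, overlapped between all groups, with 11.07 to 11.56 on LSK, 10.66 to 11.19 on WT LIC, and 11.07 and 11.31 on Ezh2 KO arrays. Slc50a1 (SWEET1), a sugar carrier found on Golgi membranes, was at 9.38, 9.38 and 9.27 on LSK arrays and at 7.75, 8.25 and 8.79 on WT LIC arrays. This difference of -1.08 did not pass with all arrays (limma adjusted p = 0.0699) and passed without WT LIC replicate 3 (-1.34, adjusted p = 0.0192).

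Several amino acid carriers linked to glutamine and cystine supply did not pass in WT LICs. Slc1a5 (ASCT2), a glutamine carrier, differed by 0.35 (limma adjusted p = 0.304). Slc38a1 and Slc38a2, sodium-coupled carriers of glutamine and alanine, differed by 0.30 and -0.09. Slc7a11, the cystine importer, was under the floor on every array, from 1.82 to 3.74. Slc29a1, the nucleoside carrier of the cell surface, differed by 0.57 (adjusted p = 0.228), Slc20a1, a phosphate carrier, by 0.63 (0.241), and the zinc exporter Slc30a1, which was dim, by 0.55 (0.519). The median SE of a gene, 0.207, limits what this number of arrays could show.

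The second comparison set Ezh2 KO LICs against LSK cells and shares the LSK arrays with the first. The levels of 10 carriers differed: they were higher for Slc1a4, Slc19a2, Slc16a3, Slc16a1, Slc7a5 and Slc12a2 and lower for Slc7a4, Slc22a18, Slc50a1 and Slc29a3. These were 10 of 246 members (4.07%), 6 higher and 4 lower, against 3.47% of all genes (1.61% higher, 1.86% lower). The arrays did not overlap in 82 members (33.3%), against 38.7% of all genes, and the unadjusted p was under 0.05 in 39 (15.9%) against 19.2%. Among the brighter members 9 of 113 passed (7.96%), against 4.92% of all genes above 6, a difference that was not tested. The median difference was -0.01 for members and -0.02 for all genes. Both comparisons with LSK cells called 6 genes: Slc1a4, Slc16a1, Slc16a3, Slc7a4, Slc7a5 and Slc29a3. Since both use the same LSK arrays, this overlap is no independent repeat. The overlap over all genes was not counted, so this one is not read as a trait of carriers.

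Side by side, the differences from LSK cells in WT and Ezh2 KO LICs were 2.81 and 3.40 for Slc1a4, 1.66 and 1.64 for Slc16a3 and 0.71 and 0.91 for Slc16a1. They were 1.04 and 0.87 for Slc7a5, -1.59 and -1.81 for Slc7a4 and -1.14 and -0.86 for Slc29a3. In the knockout cells the limma adjusted p-values were 0.0133 for Slc1a4, 0.0206 for Slc16a3, 0.0325 for Slc16a1, 0.0476 for Slc7a5, 0.0363 for Slc7a4 and 0.0482 for Slc29a3. A fit that leaves out a knockout array holds 1 of them, assumed to vary like the other groups. Of these calls, that of Slc1a4 was lost without Ezh2 KO LIC replicate 2 (adjusted p = 0.0803), and that of Slc16a3 without LSK replicate 3 (0.051) or Ezh2 KO LIC replicate 1 (0.102). The call of Slc7a5 was lost whichever of the 8 arrays was left out (0.0529 to 0.206). Those of Slc16a1, Slc7a4 and Slc29a3 held in 2, 3 and 1 of the 8 such fits.

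Slc19a2, the thiamine (vitamin B1) carrier on chromosome 1, had the lowest p of the members in this comparison. It stood at 6.84, 7.28 and 6.71 on LSK arrays, at 8.03, 7.90 and 7.84 on WT LIC arrays and at 8.73 and 9.24 on Ezh2 KO arrays. The 3 groups were stacked without overlap, with LSK cells lowest and Ezh2 KO LICs highest. The knockout cells exceeded LSK cells by 2.04 (SE 0.23, 4.12-fold, limma adjusted p = 0.00795), and this call was kept in all 8 fits that left out an array. WT LICs exceeded LSK cells by 0.98 (SE 0.21) without passing (adjusted p = 0.0502, and 0.0493 without LSK replicate 2). Its second probe set had a mean of 2.93, under the floor, and with both probe sets averaged the adjusted p was 0.262.

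Slc12a2 (NKCC1), which brings sodium, potassium and chloride into cells together, was at 10.03, 9.94 and 9.99 on LSK arrays, at 10.14, 9.94 and 10.16 on WT LIC arrays and at 10.60 and 10.76 on Ezh2 KO arrays. The knockout arrays lay above all others, and the gene rose against LSK cells by 0.70 (SE 0.15, 1.62-fold, limma adjusted p = 0.0489). Its other probe sets differed by 1.29 and 0.23, and the call was lost whichever of the 8 arrays was left out (0.0518 to 0.211). Slc50a1 was at 7.79 and 8.13 on the Ezh2 KO arrays and fell by 1.38 against LSK cells (SE 0.29, 2.61-fold, limma adjusted p = 0.0497). That call held in 2 of 8 fits that left out an array, with adjusted p-values from 0.0225 to 0.214. Slc22a18, a dim organic cation carrier from an imprinted region, was at 6.16, 5.84 and 5.37 on LSK arrays, at 4.97, 5.34 and 4.97 on WT LIC arrays and at 4.04 and 4.64 on Ezh2 KO arrays. It fell by 1.45 in the knockout cells (SE 0.28, 2.73-fold, limma adjusted p = 0.0414), a call that held in 2 of 8 such fits (0.0464 to 0.192).

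Members close behind did not pass in the knockout cells. Slc9a8, a sodium-proton exchanger of the Golgi, had a difference of -0.95 (limma adjusted p = 0.0725), Slc44a2, a choline-like carrier, -0.81 (0.0758) and Slc7a6 0.73 (0.0799). Slc25a13, the aspartate-glutamate exchanger of mitochondria, was at 9.67 to 9.86 on LSK arrays, at 9.95 to 10.004 on WT LIC arrays and at 10.30 on both Ezh2 KO arrays, with a difference from LSK cells of 0.51 (adjusted p = 0.0931). Slc48a1, a haem carrier of lysosomes, was at 9.25 to 9.36 on LSK arrays, 9.23 to 9.39 on WT LIC arrays and 8.70 and 8.88 on Ezh2 KO arrays. The knockout arrays lay below both other groups (-0.52 against LSK cells, adjusted p = 0.0934).

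The third comparison asked what the loss of Ezh2 changed within LICs. No carrier passed: 0 of 246 members had a limma adjusted p under 0.05, against 0.637% of all genes (79 genes, 0.589% of all genes higher and 0.0484% lower). At an unadjusted p under 0.05 there were 30 members (12.2%, 16 higher and 14 lower), against 11.1% of all genes. The arrays did not overlap in 74 members (30.1%), against 29.8% of all genes, and the median difference was -0.06 for members and -0.05 for all genes. Both shares are near those of all genes. Among the brighter members they were 17.7% and 37.2%, against 14.1% and 33.5% of all genes above 6. A median SE of 0.232 and 2 knockout arrays limit what could be seen.

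**Figure D3:**
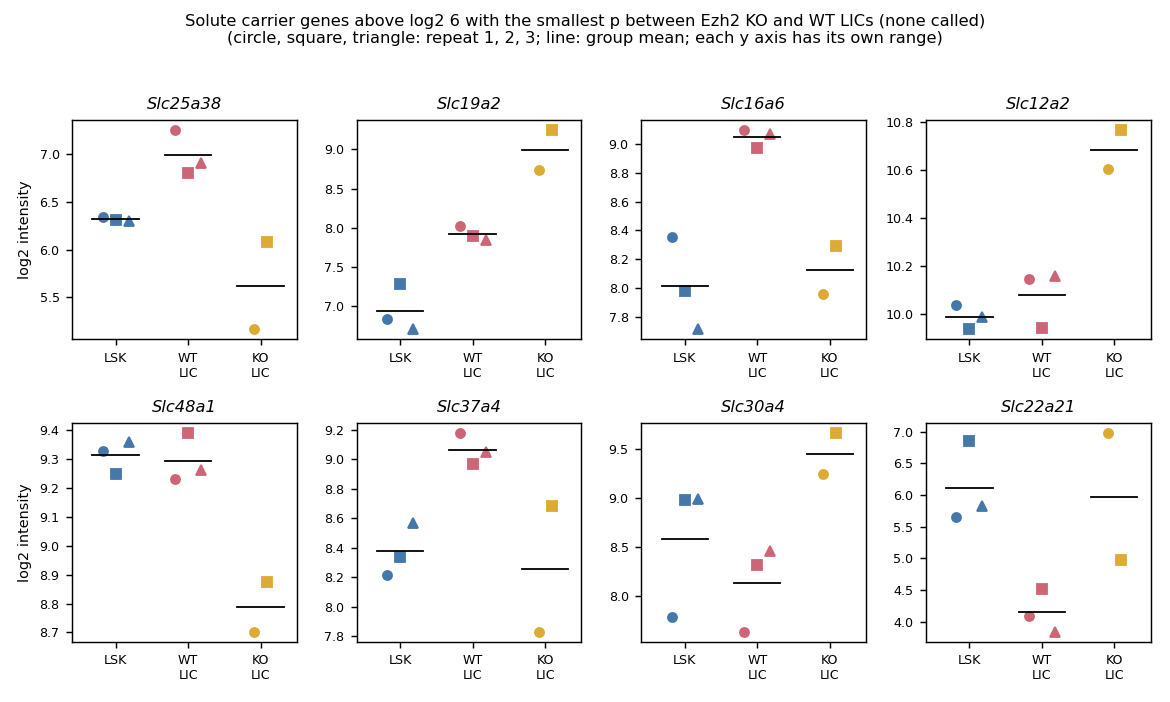
The 8 solute carrier genes with a mean above log2 6 in at least 1 group and the smallest p between Ezh2 KO and WT LICs, none of them called. Log2 intensity is shown by group with a vertical axis of its own for each gene. Slc22a21 is above 6 in LSK cells alone and was at 4.09, 4.52 and 3.84 on the WT LIC arrays. Circles, squares and triangles are repeats 1, 2 and 3 and lines are group means; in these 8 genes no Ezh2 KO array lies inside the WT LIC range.

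Among them, Slc25a38, which brings glycine into mitochondria for haem synthesis, had the smallest p. It was at 7.25, 6.81 and 6.91 on WT LIC arrays, at 5.17 and 6.08 on Ezh2 KO arrays and at 6.35, 6.31 and 6.30 on LSK arrays. The knockout arrays lay below both other groups, by -1.37 against WT LICs (SE 0.27, limma adjusted p = 0.117). The adjusted p became 0.0474 when Ezh2 KO LIC replicate 2 was left out, a fit with 1 knockout array that is assumed to vary like the other groups. Slc19a2 was higher in the knockout cells by 1.07 (SE 0.23, adjusted p = 0.137), Slc16a6 differed by -0.92 (SE 0.22, 0.173) and Slc12a2 by 0.60 (SE 0.15, 0.179). The dim Slc7a3, under the floor in the knockout cells, had a WT LIC mean at least 1.36-fold above it, without passing (adjusted p = 0.134).

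Further values between the LIC genotypes were -0.51 for the haem carrier Slc48a1 (limma adjusted p = 0.238) and -0.81 for Slc37a4, the glucose-6-phosphate carrier of the endoplasmic reticulum (0.309). Slc37a4 was at 9.18, 8.97 and 9.05 on WT LIC arrays and at 7.83 and 8.68 on Ezh2 KO arrays, which do not overlap but differ from each other by more than the WT LIC arrays do. Slc30a4, a zinc carrier of vesicles, was at 7.63, 8.31 and 8.45 on WT LIC arrays and at 9.24 and 9.66 on Ezh2 KO arrays (1.32, adjusted p = 0.309). The amino acid carriers Slc38a2 and Slc1a5 differed by -0.47 and -0.56 (adjusted p = 0.338 and 0.358), each with all knockout arrays below all WT LIC arrays. Slc52a3, a riboflavin carrier, was at 6.46, 5.89 and 4.13 on WT LIC arrays and at 7.16 and 7.17 on Ezh2 KO arrays (1.67, adjusted p = 0.389). Slc2a1 differed by 0.40 without passing (adjusted p = 0.494). The B-lineage marker sums given above differ between the same arrays, and their part in these values was not tested.

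Some carriers of iron and 4 other members are given here for their spread among the WT LIC arrays. The range over these arrays was 5.58 for Slc40a1, 1.52 for Slc11a2 and 1.28 for Slc39a8, against a median of 0.575 over the 113 brighter members. Carriers of other cargo, picked with their values in view, ranged more widely than Slc11a2 and Slc39a8. They include Slc15a2 (4.51), Slc35a3 (2.84), Slc13a2 (3.37) and Slc2a9 (2.07), with replicate 3 the highest for Slc13a2 and Slc2a9. Other iron carriers varied less than Slc40a1, Slc11a2 and Slc39a8. Their range was 0.222 for Slc25a28, 0.311 for Slc39a14 and 0.752 for Slc25a37, and replicate 3 was the highest of the WT LIC arrays for Slc25a28 and Slc25a37. Slc40a1 (ferroportin), the iron exporter, was at 8.42, 7.83 and 2.84 on the WT LIC arrays, at 5.65, 5.31 and 5.62 on LSK arrays and at 5.42 and 5.50 on Ezh2 KO arrays. WT LIC replicate 3 thus lay below every other array, and replicates 1 and 2 lay above all of them. With all arrays the difference from LSK cells was 0.84 (SE 1.31, limma adjusted p = 0.774). Without replicate 3 it was 2.60 (adjusted p = 0.00309), and Ezh2 KO minus WT LICs was -2.67 (adjusted p = 0.0128).

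Slc11a2 (DMT1), which brings in iron, was at 8.80, 8.20 and 7.28 on WT LIC arrays, at 6.52, 6.79 and 6.50 on LSK arrays and at 7.31 and 6.19 on Ezh2 KO arrays. The WT LIC arrays lay above the LSK arrays, by 1.49 with all arrays (SE 0.42, limma adjusted p = 0.103) and by 1.90 without replicate 3 (adjusted p = 0.0342). Its 3 probe sets were all higher in WT LICs, by 0.74 to 1.49. Slc39a8 (ZIP8), a zinc, iron and manganese importer, was at 9.11, 8.54 and 7.82 on WT LIC arrays, at 7.30, 7.20 and 7.48 on LSK arrays and at 8.27 and 8.38 on Ezh2 KO arrays. It was higher by 1.16 (adjusted p = 0.0838), and by 1.497 without replicate 3 (adjusted p = 0.0153).

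**Figure D4:**
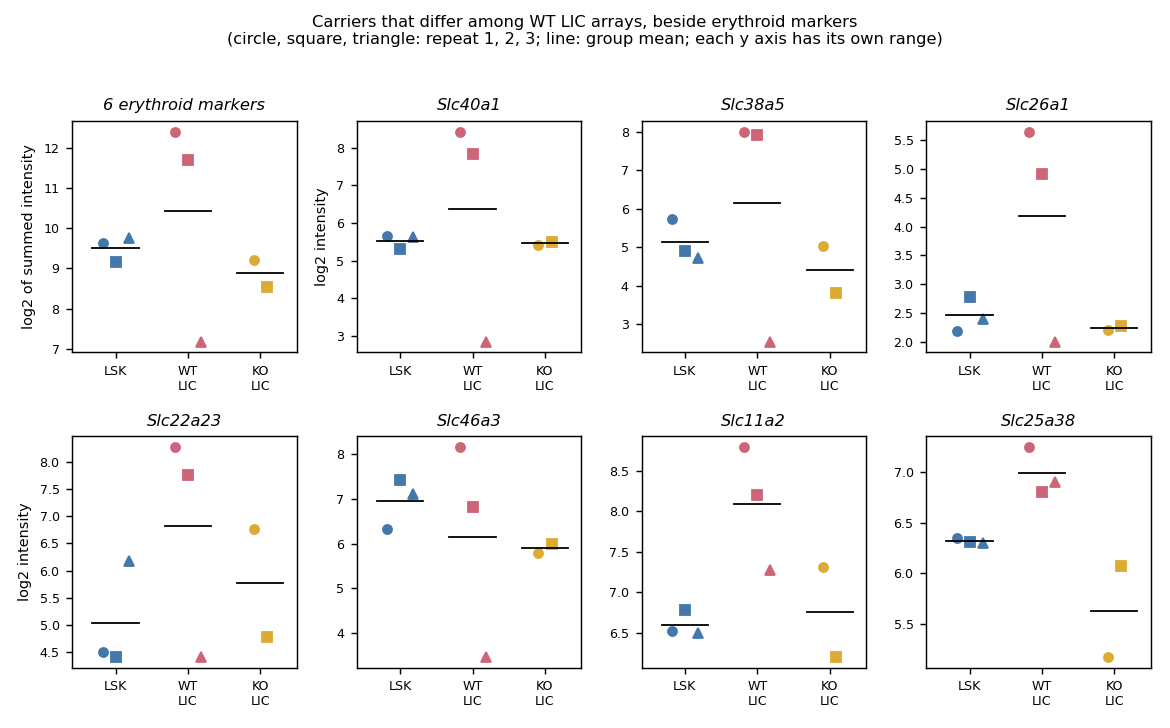
Log2 intensity of 7 carriers by group, with the log2 of the summed intensity of 6 measured erythroid markers in the first panel. Circles, squares and triangles are repeats 1, 2 and 3 and lines are group means; WT LIC replicate 3 (triangle) is the lowest of all arrays for the erythroid markers, Slc40a1 and Slc46a3, and for Slc38a5 and Slc26a1 it is under the floor of 4.01.

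Slc38a5, Slc26a1, Slc22a23 and Slc46a3 were chosen after their values were seen. Slc38a5, a glutamine carrier on the X chromosome, was at 8.01, 7.93 and 2.54 on the WT LIC arrays, at 5.75, 4.91 and 4.73 on LSK arrays and at 5.02 and 3.81 on Ezh2 KO arrays. Slc26a1, a sulfate carrier, was at 5.65, 4.92 and 2.00 on WT LIC arrays and between 2.19 and 2.78 on the LSK and Ezh2 KO arrays. In both, as in Slc40a1, replicate 3 was under the floor and the other WT LIC arrays were the highest of all. The LSK and Ezh2 KO values of Slc26a1 are under the floor too, so they have no order with replicate 3. Without replicate 3, Slc38a5 gave 2.84 for WT LICs minus LSK cells (limma adjusted p = 0.0188) and -3.55 for Ezh2 KO minus WT LICs (0.0259). For Slc26a1 the level in WT LICs was then at least 2.42-fold above the floor, which stands for both other groups. The limma adjusted p-values, 0.00474 against LSK cells and 0.0136 against Ezh2 KO LICs, test the log2 values as measured and not this fold. With all arrays neither Slc38a5 nor Slc26a1 passed.

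Slc22a23, a carrier of unknown cargo, was at 8.27, 7.76 and 4.42 on WT LIC arrays, and Slc46a3, a lysosomal carrier, was at 8.17, 6.81 and 3.45. Neither passed without replicate 3. Leaving out that array raised the number of called members from 10 to 16 for WT LICs against LSK cells, from 0 to 3 for the LIC genotypes and from 10 to 13 for Ezh2 KO LICs against LSK cells. Calls over all genes rose too, from 424 to 643, from 79 to 146 and from 430 to 643. Between WT LICs and LSK cells, 7 of the 10 earlier member calls were among the 16. Of the erythroid markers, Hba-a1 and Epb42 were under the floor on every array, while among WT LIC replicates 1, 2 and 3 Klf1 was at 10.78, 9.81 and 4.89, Gata1 at 9.76, 9.33 and 6.17, and Ermap at 11.42, 10.79 and 3.85. The part of erythroid cells in these results was not tested.

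Genes outside the choice were listed for comparison. ABC transporters use ATP directly, but their list was made by symbol (Abca to Abcg) and takes in Abcf2, which is not a membrane transporter. Of these 36 genes, 4 passed between WT LICs and LSK cells (Abcb9 and Abcf2 higher, Abca1 and Abcg3 lower). Between the LIC genotypes 1 passed (Abcg3 higher in the knockout), and 3 did for the knockout cells against LSK cells. These are 11.1%, 2.78% and 8.33% of this short list, against 3.42%, 0.637% and 3.47% of all genes. Of 22 P-type ATPase genes, of 40 carriers that bear other names and of 6 partner proteins of carriers, 0 passed in any of the 3 comparisons. Among the partners, the transferrin receptor Tfrc is named because it had the largest difference of the 6 between WT LICs and LSK cells. It was at 10.12 to 10.73 on LSK arrays and at 12.09, 12.03 and 11.21 on WT LIC arrays, a difference of 1.30 (limma adjusted p = 0.055). The difference between these lists and the solute carriers was not tested.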

How the data were processed

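Marrow was stained and cells were sorted straight into lysis buffer, and total RNA was amplified from a chimeric primer and biotin-labelled, per the labels' protocols. The submitters' processing notes name RMA without a version. The deposited values are linear intensity values from 1.94 to 19343, whose sorted log2 values differed between arrays by an SD of at most 0.081, so they had been brought to a common distribution; further steps are not stated in the sources used here. The design had assumed log2 values, so log2 was taken with no pseudocount and the test was kept.

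Of 22690 probe sets, 64 controls, 691 with several symbols and 1555 not listed in the annotation were left out, and 20380 with 1 symbol gave 12393 genes; 20351 of these probe sets matched RefSeq (GRCm38.p6) by gene number, which gave names and chromosomes. The 246 members had 393 probe sets, and 93 members had several. Levels of different genes were set against each other only to choose genes (by the limit of 6, by the floor and as the brightest of a cargo group). A fit of all 8 arrays in limma 3.58.1 (R 4.3.3, lmFit and eBayes) had the 3 groups as its sole factor and 5 residual degrees of freedom. Tests were 2-sided, with Benjamini-Hochberg adjustment over all 12393 genes and calls at 0.05. Exact permutation tests were not used, since with 3 or 2 arrays against 3 the smallest p they allow is 0.1. Fit and calls were tested on simulated data. If the mean of either group did not exceed 4.01, that level took its place and the fold is a minimum. The p-value given with such a fold is that of the log2 values as measured.

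The members, families' cargo groups, motifs and lists were chosen with earlier results of these data known. Cargo groups follow the main cargo of a family. Named genes were the called members, those with the smallest p up to 24 in each comparison, the brightest of cargo groups with none of these, and 24 carriers of general interest, of which 20 were measured. Any other gene was named as a check of the samples, from a marker or comparison list, by a stated limit or with its values in view. The alternatives changed the gene filter, the scaling (median centring or quantile normalization), the prior (trended and robust), the weights of arrays, the arrays entering the fit (compared groups, or 1 array fewer), the blocking by repeat number, the summary of probe sets (their mean) and the offset before log2 (32). Tables and plots used pandas 2.3.3 and matplotlib 3.10.9 under Python 3.11.15.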

Additional observations from a re-analysis of the deposited data

How the results depend on the processing

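With 3 or 2 arrays a group, most calls lie near the threshold. Of 20 calls followed, 1 (Slc16a3 between WT LICs and LSK cells) was kept under every alternative, and 18 of 52 uncalled differences passed under at least 1; no named difference turned its direction while called. Between WT LICs and LSK cells the 10 called members became 17 with array weights and 3 to 16 with 1 array left out (3 without WT LIC replicate 1 or 2, 16 without replicate 3), and 8 to 13 otherwise. Between Ezh2 KO and WT LICs the count of 0 held under all alternatives except leaving out an array, which gave 0 to 3; by limma 30 members had an unadjusted p under 0.05. The single members there were Slc7a2 (without Ezh2 KO LIC replicate 1, adjusted p = 0.0238) and Slc25a38 (without replicate 2); each such fit holds 1 knockout array, assumed to vary like the other groups, and for Slc7a2 that array alone is above the floor. Between Ezh2 KO LICs and LSK cells the 10 became 5 with quantile normalization, 4 with the compared groups alone and 3 to 13 with 1 array left out. Over all genes the 424, 79 and 430 calls became 917, 119 and 575 with array weights, 327, 35 and 319 with the compared groups alone, and 541, 32 and 477 with dim genes left out. Without WT LIC replicate 3 they became 643, 146 and 643. Median centring moved the median of all genes from 0.02 to 0.15 between WT LICs and LSK cells. The median differences of members stayed within the spread between arrays. With the limit for brighter members at 5 or 7 there were 135 or 93 of them, and 136 with 32 added. The causes of these shifts were not tested.

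The labels number the repeats and do not say whether equal numbers belong together. Correlations of same-numbered deviations were -0.051, -0.017 and -0.019 between LSK cells and WT LICs, -0.020 and -0.014 between LSK cells and Ezh2 KO LICs, and 0.145 and 0.019 between the LIC genotypes. Those of arrays with unlike numbers ran from -0.145 to 0.095. Deviations from the mean of 2 knockout arrays mirror each other, so these correlations cannot decide whether samples are paired. With the replicate number as a block, 8, 0 and 4 members were called in the 3 comparisons, and 252, 36 and 147 of all genes.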

Other observations

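Slc15a2, Slc13a2 and Slc7a2 were chosen after their values were seen. Slc15a2 (PEPT2), a carrier of small peptides, differed widely within groups, with 10.83, 2.92 and 8.02 on the LSK arrays, 7.46, 4.68 and 2.95 on the WT LIC arrays and 7.73 and 8.96 on the Ezh2 KO arrays. Slc13a2, a dicarboxylate carrier, was at 5.97, 8.08 and 3.97 on LSK arrays, at 3.02, 2.96 and 6.33 on WT LIC arrays and at 3.62 and 4.68 on Ezh2 KO arrays. Slc7a2, a carrier of cationic amino acids, was at 5.14 on Ezh2 KO LIC replicate 2 and between 2.61 and 3.04, under the floor, on every other array. Slc6a15, a neutral amino acid carrier, was at 5.78 and 7.61 on the Ezh2 KO arrays and at 5.56, 3.65 and 4.82 on the WT LIC arrays. None of these differences between groups passed in limma with all arrays.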
